A study of Mus musculus with 2 samples.

Results

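The interleukin-33 (IL-33) and interleukin-1 (IL-1) system was followed as 7 genes, taken by symbol from the 24984 gene symbols counted in 2 droplet single-cell RNA-seq libraries of dystrophic mouse muscle. The ligands were Il33 and Il1b, the receptor antagonist was Il1rn, the signalling receptors were Il1rl1 and Il1r1, the decoy receptor was Il1r2 and the shared co-receptor was Il1rap. The Ctrl library came from Pax7CreERT2/R26YFP; Yy1+/+; mdx mice and the dKO library from Pax7CreERT2/R26YFP; Yy1 f/f; mdx mice. All mice of both groups carried the mdx mutation and lacked dystrophin, so neither library is healthy muscle. Tamoxifen was given on 5 days at 1.5 months of age, which switches on the Pax7-driven Cre in muscle stem cells (MuSCs) and removes the transcription factor YY1 there alone. Mononuclear cells of hind limb muscle were sorted as live cells 1 month later, at 2.5 months of age, and the cells of 3 mice were pooled into 1 library per group.

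With 1 library per group there was no replicate and no test between Ctrl and dKO. Each level is the unique molecular identifiers (UMIs) of a gene summed over a cell class, given as counts-per-million (CPM) of all UMIs of that class and library. Brackets hold 95% intervals, exact Poisson for CPM, exact conditional binomial for dKO to Ctrl ratios and exact binomial for shares. They cover counting error only, and not the differences between mice or between dissociations. A ratio was counted as past the fold at 1.5-fold or more in either direction where the class held at least 20 UMIs of the gene over both libraries.

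The libraries held 4527 and 3483 barcodes with 45556596 and 33815155 UMIs. Barcodes with under 500 genes and the 7.5% with the highest doublet scores were left out, which kept 4010 Ctrl and 3079 dKO cells at medians of 7880 and 7806 UMIs. The libraries shared 7 barcode sequences. Cells were clustered without the 7 genes and their family lists, and clusters were named as "-like" from fixed markers. The 12 classes with at least 20 cells in each library each had 8 or more of their listed markers over 2-fold above the other cells, apart from B cell-like cells with 6 of 6. Class sizes differed. FAP-like cells (fibro-adipogenic progenitors, the mesenchymal cells of muscle) were 27.1% of the cells kept from Ctrl and 37.0% of those from dKO. Monocyte/macrophage (MO/MP)-like cells were 35.5% and 36.8%, endothelial cell (EC)-like cells 11.6% and 5.81%, neutrophil-like cells 2.44% and 1.14% and MuSC-like cells 2.92% and 0.974%. The targeted gene Yy1 was at 160 CPM (144 to 177, 369 UMIs) in the 117 Ctrl MuSC-like cells and at 4.85 CPM (1.00 to 14.2, 3 UMIs) in the 30 dKO MuSC-like cells, with a ratio of 0.0304 (0.00623 to 0.0894). In FAP-like cells Yy1 was at 121 and 132 CPM, and in MO/MP-like cells at 134 and 147 CPM.

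IL-33 is a nuclear cytokine of stromal and barrier cells that is set free when cells are damaged, and it signals through ST2, the product of Il1rl1, paired with the IL-1 receptor accessory protein, the product of Il1rap. IL-1β is made as an inactive precursor by myeloid cells and signals through IL-1 receptor type 1, the product of Il1r1, with the same accessory protein. The product of Il1rn occupies the type 1 receptor without signalling, and the type 2 receptor encoded by Il1r2 binds the cytokine but lacks the signalling domain. In injured muscle, IL-33 from FAPs is known to act on ST2-bearing regulatory T cells, which release the growth factor amphiregulin. Il1rl1 also makes a soluble ST2 that traps IL-33, and counts per gene symbol do not separate the soluble and the membrane form.

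In the GENCODE M21 annotation of GRCm38, Il33 lies at chr19:29925114-29960718 on the plus strand. Il1r2 (chr1:40074079-40125231), Il1r1 (chr1:40225080-40317257) and Il1rl1 (chr1:40429570-40465415) lie in this order on the plus strand of chromosome 1. On chromosome 2, Il1rn lies at chr2:24336853-24351494 on the plus strand and Il1b at chr2:129364570-129371139 on the minus strand. Il1rap lies at chr16:26581704-26730117 on the plus strand. Il1b, Il1r2 and Il1rap overlap the annotated antisense genes Il1bos, Gm16894 and Gm20319 on the opposite strand, so reads in the overlaps are assigned by strand alone.

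The promoter sequences of Il33, Il1rl1 and Il1b are shown because Il33 and Il1rl1 each have a distal and a proximal start site that the summed counts do not separate. The distal start of Il1rl1 is known from haematopoietic cells and the proximal start from fibroblasts. Each sequence is RefSeq's in GRCm38.p6, runs 5′ to 3′ on the gene's strand and covers 250 bases before to 50 bases from the start site. Capitals mark any match, on either strand, to any of 3 motifs. These were TATAAA, the element bound by the general transcription machinery, then the AP-1 motif TGANTCA, and AAGATGGC, the core letters of a YY1 site.
Il33 distal promoter, chr19:29924863-29925162, plus strand: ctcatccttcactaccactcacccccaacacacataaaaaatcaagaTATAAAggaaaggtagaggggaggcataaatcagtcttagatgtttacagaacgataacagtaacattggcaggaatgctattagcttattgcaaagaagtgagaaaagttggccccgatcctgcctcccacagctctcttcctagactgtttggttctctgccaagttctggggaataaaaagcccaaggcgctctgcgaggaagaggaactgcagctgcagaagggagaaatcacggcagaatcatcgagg
Il33 proximal promoter, chr19:29945540-29945839, plus strand: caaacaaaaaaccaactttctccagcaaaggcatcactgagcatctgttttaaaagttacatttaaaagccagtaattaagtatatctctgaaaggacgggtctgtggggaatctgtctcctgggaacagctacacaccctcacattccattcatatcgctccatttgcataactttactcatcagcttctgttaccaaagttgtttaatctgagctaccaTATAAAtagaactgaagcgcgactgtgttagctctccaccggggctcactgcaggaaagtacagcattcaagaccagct
Il1rl1 distal promoter, chr1:40429320-40429619, plus strand: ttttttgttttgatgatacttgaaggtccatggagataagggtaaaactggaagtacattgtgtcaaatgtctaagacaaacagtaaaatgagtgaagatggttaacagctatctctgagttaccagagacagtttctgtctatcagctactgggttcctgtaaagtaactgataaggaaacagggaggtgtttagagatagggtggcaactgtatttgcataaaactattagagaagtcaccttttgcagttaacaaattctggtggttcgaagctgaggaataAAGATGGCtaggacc
Il1rl1 proximal promoter, chr1:40439379-40439678, plus strand: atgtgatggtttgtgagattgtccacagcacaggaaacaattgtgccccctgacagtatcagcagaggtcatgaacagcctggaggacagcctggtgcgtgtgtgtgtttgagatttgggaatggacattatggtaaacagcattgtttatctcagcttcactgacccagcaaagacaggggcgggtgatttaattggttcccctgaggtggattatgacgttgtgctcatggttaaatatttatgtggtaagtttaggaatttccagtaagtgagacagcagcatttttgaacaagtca
Il1b promoter, chr2:129371090-129371389, minus strand: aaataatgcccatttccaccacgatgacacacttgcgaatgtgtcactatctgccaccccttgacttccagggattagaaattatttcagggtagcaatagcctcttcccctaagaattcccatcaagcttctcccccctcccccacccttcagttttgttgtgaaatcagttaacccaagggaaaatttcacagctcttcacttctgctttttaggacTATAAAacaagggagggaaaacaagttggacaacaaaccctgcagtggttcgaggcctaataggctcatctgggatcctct
TATAAA stood 29 bases before the start site in the proximal Il33 promoter and 31 bases before it in the Il1b promoter, and 203 bases before it in the distal Il33 promoter. AAGATGGC stood 35 bases after the distal Il1rl1 start site, and the proximal Il1rl1 promoter held none of these letters. Of 32851 mouse promoters of this length, 13.6% held TATAAA, 7.81% TGANTCA and 2.75% AAGATGGC on either strand. A match describes the letters and does not show that a factor binds there.

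Il33 was a transcript of FAP-like cells in both libraries. These cells held 80.3% of all Il33 UMIs of Ctrl and 86.2% of those of dKO. Il33 was at 235 CPM (228 to 243, 3459 UMIs) in Ctrl FAP-like cells and at 329 CPM (320 to 339, 5018 UMIs) in dKO FAP-like cells, which is a ratio of 1.40 (1.34 to 1.46). This difference lay under the 1.5-fold line, but at cluster resolution 0.4 the log2 ratio moved from 0.48 to 0.70 and lay above it. A UMI of Il33 was found in 517 of 1085 Ctrl cells (47.6%) and in 584 of 1140 dKO cells (51.2%). After each cell was thinned to 2000 UMIs, with shallower cells left out, 21.7% of 1022 and 24.9% of 1086 FAP-like cells had a UMI, against 0.252% of 397 Ctrl EC-like cells. The median depth of the unthinned cells was 11777 and 11876 UMIs in FAP-like cells and 4662 UMIs in Ctrl EC-like cells.

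Cycling FAP-like cells, which carried the FAP markers with genes of cell division, also had a high Il33 level. Their Ctrl level was 338 CPM (307 to 371) and their dKO level 313 CPM (285 to 344), from 40 cells each. In Ctrl this was 1.44-fold (1.30 to 1.59) above FAP-like cells. In dKO the order turned, and the interval of the 1.05-fold gap (0.953 to 1.16) held 1. Of these 12 classes, MuSC-like cells stood next in Ctrl at 75.3 CPM (174 UMIs), of which 65 UMIs came from 1 cell, and were at 53.3 CPM (33 UMIs, 22 of them in 1 cell) in dKO. Tenocyte-like cells were at 27.9 CPM (20.3 to 37.5, 44 UMIs) in Ctrl, against 93.7 CPM (74.6 to 116, 83 UMIs) in dKO. The ratio was 3.35 (2.30 to 4.95), and 39 of the dKO UMIs came from 1 cell. Leaving out the richest cell of each library moved the log2 ratio in tenocyte-like cells from 1.75 to 1.32. Outside the 12 classes, a cluster of 35 Ctrl and 19 dKO cells, too few to be compared as a class, had 307 CPM (239 to 388, 69 UMIs) in Ctrl. Its dKO level of 1996 CPM (1740 to 2279, 218 UMIs in 16 of the cells, 46 of them in 1 cell) was above both FAP-like classes. Its ratio was 6.51 (4.95 to 8.66). Lymphatic EC-like cells, 18 in Ctrl and 13 in dKO, were at 161 CPM (17 UMIs) and 31.3 CPM (2 UMIs). These counts were under the 20 UMIs needed for a fold call.

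The haematopoietic classes held little Il33. Neutrophil-like cells had 0 UMIs in both libraries, which allows up to 10.4 CPM in Ctrl and 43.5 CPM in dKO. MO/MP-like cells were at 5.89 CPM (77 UMIs) in Ctrl and 2.20 CPM (19 UMIs) in dKO, with a ratio of 0.374 (0.214 to 0.624). Of the 77 Ctrl UMIs, 33 came from 1 cell, and without the richest cell of each library the log2 ratio went from -1.42 to -0.77. The summed level of 10 FAP markers in MO/MP-like cells was 516 CPM in Ctrl and 372 CPM in dKO, and the part of FAP RNA in this difference was not tested.

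**Figure D1:**
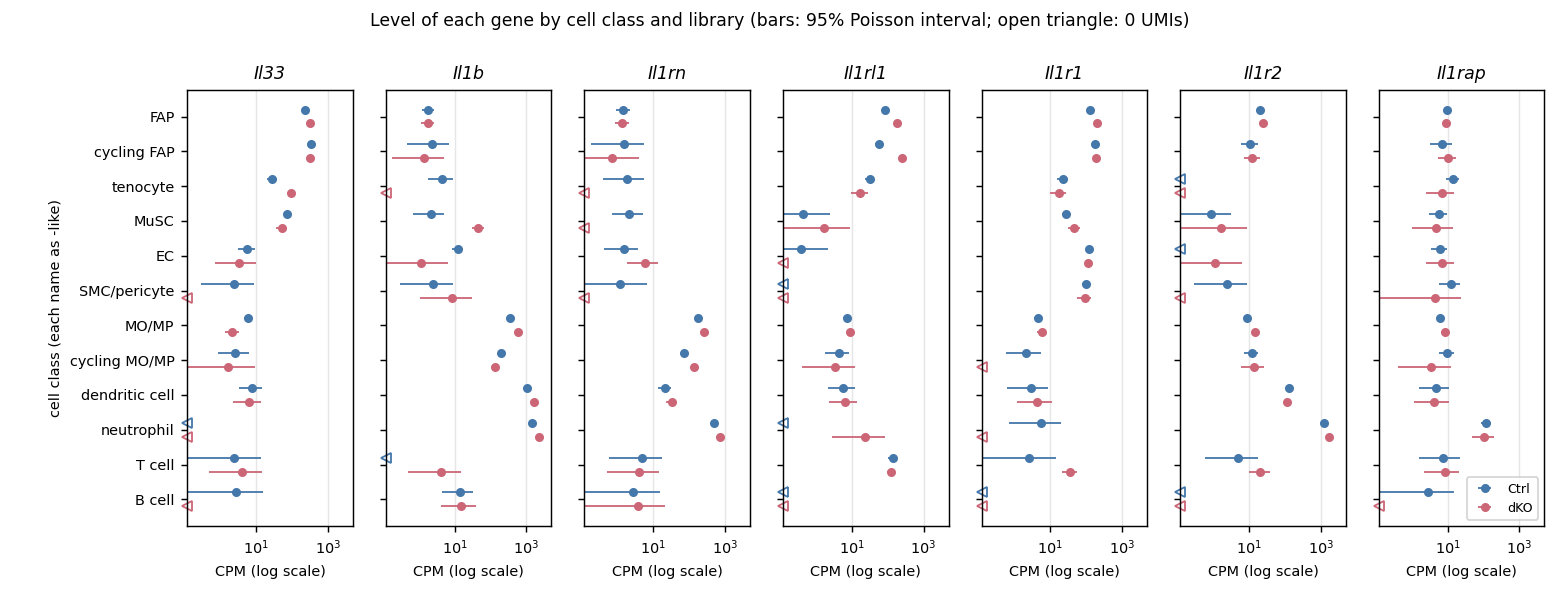
Levels of the 7 genes (columns) in 12 cell classes (rows) as CPM on a log axis, blue for Ctrl and red for dKO, with 95% Poisson bars and open triangles at the left edge for 0 UMIs. Of these classes, Il33 and Il1r1 were highest in the FAP-like ones, Il1b, Il1r2 and Il1rn in neutrophil-like cells, and Il1rl1 in FAP-like and T cell-like cells.

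The FAP-like class was split into 6 sub-clusters, again without the 7 genes and family lists, and each is called by 1 or 2 of its leading genes. Il33 was highest in the Cxcl5/Inhba-led cells, whose genes include the chemokine Cxcl5 and the activin subunit Inhba. There the level was 474 CPM (2111 UMIs) in Ctrl and 501 CPM (2724 UMIs) in dKO, a ratio of 1.06 (0.999 to 1.12). In the other sub-clusters the Ctrl and dKO levels lay further apart. The Clu/Comp-led cells went from 157 CPM in Ctrl to 317 CPM in dKO, a ratio of 2.02 (1.72 to 2.39). The C1qtnf3/Mest-led cells had a ratio of 1.74 (1.56 to 1.95), the Dmkn/Car8-led cells, which also had the progenitor gene Dpp4 among their leading genes, 1.40 (1.24 to 1.59), and the small Fmo2/Gdf10-led group 2.18 (1.43 to 3.39). Only the G0s2-led cells had a lower value in dKO, 80.0 against 95.5 CPM, with an interval of the ratio (0.655 to 1.07) that held 1. The Cxcl5/Inhba-led cells made up 18.2% (15.99 to 20.7) of FAP-like cells in Ctrl and 22.3% (19.9 to 24.8) in dKO. With the sub-cluster makeup held equal in both libraries, the Il33 ratio over FAP-like cells was 1.26 instead of 1.40.

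Il1rl1, the IL-33 receptor gene, had its highest levels in the FAP-like classes and in T cell-like cells. FAP-like cells held 80.9% of the Il1rl1 UMIs of Ctrl and 84.5% of those of dKO. Ctrl FAP-like cells stood at 83.5 CPM (78.9 to 88.3, 1226 UMIs) and dKO FAP-like cells at 186 CPM (179 to 193, 2835 UMIs), with a ratio of 2.23 (2.08 to 2.39). A UMI was found in 118 of 1085 Ctrl cells (10.9%) and in dKO in 173 of 1140 (15.2%). At 2000 UMIs per cell the shares were 4.89% and 9.39%. The same thinned share in MO/MP-like cells was 1.33% and 1.96%, with unthinned median depths of 7740 and 6818 UMIs. Those cells were at only 7.19 and 8.69 CPM, but their 94 and 75 UMIs were more than the 56 and 61 of T cell-like cells. Among the MO/MP-like sub-clusters described below, the Lyve1/Cd163-led cells were at 34.4 and 21.5 CPM. The Dcstamp/Ear2-led cells were at 14.2 and 22.6 CPM. The FAP-like cells with Il1rl1 were a minority with uneven counts, and the richest cell held 66 UMIs in Ctrl and 130 UMIs in dKO.

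Within FAP-like cells Il1rl1 was concentrated in the Cxcl5/Inhba-led sub-cluster, where it ranked among the leading genes although it took no part in the clustering. This sub-cluster held 85.3% (83.2 to 87.3) of the FAP-like Il1rl1 UMIs in Ctrl and 91.7% (90.7 to 92.7) in dKO, and 30.3% and 35.7% of all FAP-like UMIs. Its level was 235 CPM in Ctrl and 478 CPM in dKO, a ratio of 2.04 (1.90 to 2.19), and 5.13% of the 10690 genes counted there were at least 1.5-fold higher in dKO. A UMI was present in 80 of 198 Ctrl cells (40.4%, 33.5 to 47.6) and in 124 of 254 dKO cells (48.8%, 42.5 to 55.1), with medians of 7 and 11 UMIs per positive cell. The Dmkn/Car8-led and Clu/Comp-led cells held fewer Il1rl1 UMIs, many of them in single cells. The Dmkn/Car8-led cells went from 9.91 CPM (13 UMIs) to 33.9 CPM (59 UMIs, 37 of them in 1 cell), a ratio of 3.42 (1.86 to 6.80), and 2.35 (0.970 to 6.52) without the richest cell of each library. The Clu/Comp-led cells went from 85.7 CPM (106 UMIs in 7 positive cells) to 55.0 CPM (107 UMIs in 11 positive cells), a ratio of 0.642 (0.486 to 0.848). Here 64 of the Ctrl and 40 of the dKO UMIs came from 1 cell each, and without these cells the levels were 34.4 and 34.7 CPM, a ratio of 1.01 (0.676 to 1.52). With the sub-cluster makeup held equal, the ratio over FAP-like cells was 1.89.

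Ligand and receptor transcripts were found in the same FAP-like cells. Among the Cxcl5/Inhba-led cells with an Il33 UMI, 41.5% in Ctrl and 50.6% in dKO also had Il1rl1. Among those without Il33 the shares were 38.1% and 45.2%, and their intervals overlapped those of the cells with Il33. The cells with Il33 were deeper, at medians of 24043 and 23426 UMIs against 19315 and 15485 UMIs.

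**Figure D2:**
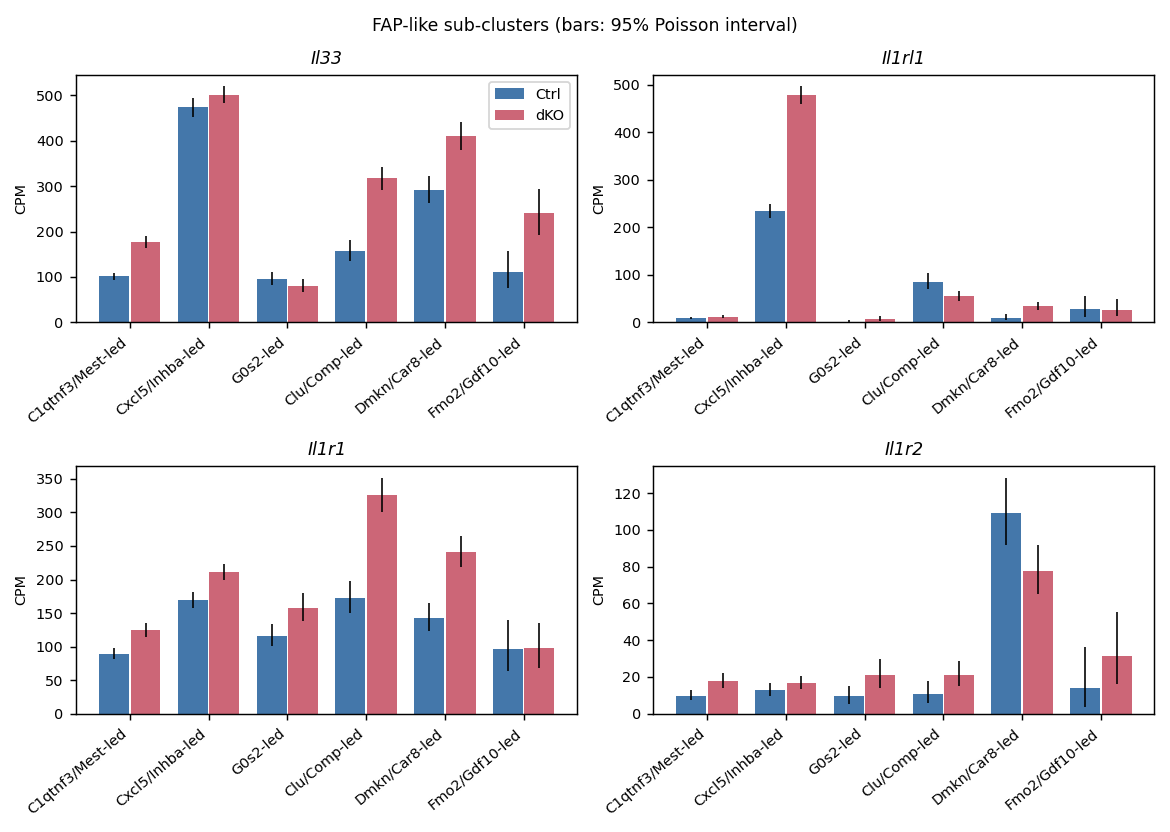
Il33, Il1rl1, Il1r1 and Il1r2 in CPM (vertical axes, from 0) in 6 FAP-like sub-clusters named by their leading genes, blue bars for Ctrl and red for dKO, with 95% Poisson bars. Il1rl1 was highest in the Cxcl5/Inhba-led cells at 235 and 478 CPM, while Il33 and Il1r1 were spread over all 6 groups and Il1r2 was highest in the Dmkn/Car8-led group.

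Cycling FAP-like cells were at 56.6 CPM Il1rl1 (73 UMIs) in Ctrl and 257 CPM (357 UMIs) in dKO, a ratio of 4.54 (3.52 to 5.93). These are few cells, and 41 of the Ctrl UMIs and 132 of the dKO UMIs came from 1 cell each. At the coarser cluster resolution of 0.4, FAP-like cells rich in Il1rl1 moved into this class, and the log2 ratio became 0.55 in FAP-like and 1.26 in cycling FAP-like cells. Taken as 1 pool, FAP-like and cycling FAP-like cells were at 81.3 and 192 CPM, a ratio of 2.36 (2.21 to 2.52) at either resolution. Tenocyte-like cells had 50 Il1rl1 UMIs in 6 Ctrl cells, 31.7 CPM, and 15 UMIs in 8 dKO cells, 16.9 CPM, with a ratio of 0.534 (0.278 to 0.966). EC-like cells had 1 UMI in Ctrl and 0 in dKO, and smooth muscle cell/pericyte-like and B cell-like cells had 0 in both.

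In T cell-like cells Il1rl1 was at 139 CPM (105 to 180, 56 UMIs in 13 of 117 cells) in Ctrl against 126 CPM (96.2 to 162, 61 UMIs in 15 of 137 cells) in dKO. The ratio was 0.906 (0.620 to 1.33), so the class as a whole showed no difference beyond counting error, and 13.3% of 4995 genes were at least 1.5-fold higher there and 9.41% lower. In Ctrl the level stood 1.66-fold (1.25 to 2.17) above FAP-like cells, and in dKO it lay below both FAP-like classes. The even total covered sub-clusters that differed in opposite directions. In the Foxp3-led cells, whose leading gene encodes the defining factor of regulatory T cells, Il1rl1 was at 103 CPM (13 UMIs in 4 of 35 cells) in Ctrl and 353 CPM (42 UMIs in 11 of 32 cells) in dKO. The richest cell of each library held 9 and 16 of these UMIs. The ratio was 3.43 (1.81 to 6.97), and 7.23 (2.51 to 28.5) without these cells, where 18.7% of 1787 genes were at least 1.5-fold higher. In the Cd163l1/Blk-led cells it was at 644 CPM (42 UMIs in 8 of 20 cells) in Ctrl and 163 CPM (17 UMIs in 3 of 29 cells) in dKO. This ratio was 0.252 (0.135 to 0.453), and 0.164 (0.0649 to 0.366) without the richest cell of each library, where 13.0% of 1261 genes were at least 1.5-fold lower.

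The Il1rl1-positive T cell-like cells also carried Gata3, the transcription factor of type 2 lymphocytes, in 12 of 13 Ctrl and 13 of 15 dKO cells. Among Il1rl1-negative T cell-like cells Gata3 was found in 25.0% of 104 and 23.8% of 122 cells, and the median depths were 3631 and 2646 UMIs with Il1rl1 and 3039 and 3099 UMIs without. Foxp3 was found in 4 of the 13 and in 8 of the 15, all of them in the Foxp3-led sub-cluster. Gata3 without Foxp3 and without the T cell receptor subunit gene Cd3e was found in 8 of the 13 and 5 of the 15. In the Foxp3-led cells the amphiregulin gene Areg was at 372 CPM (47 UMIs) in Ctrl and 480 CPM (57 UMIs) in dKO. Of these UMIs, 31 and 32 came from 1 cell each. In the Cd163l1/Blk-led cells, other genes of type 2 lymphocytes did not all lie the same way. Gata3 was at 1917 CPM (125 UMIs) in Ctrl and 258 CPM (27 UMIs) in dKO. The cytokine gene Il5 had 69 UMIs in Ctrl, 37 of them in 1 cell, and 2 UMIs in dKO. Areg had 141 UMIs in Ctrl, 63 of them in 1 cell, and 29 UMIs in dKO. The cytokine gene Il13 lay the other way, with 3 UMIs in Ctrl and 19 in dKO, of which 14 came from 1 cell. Cd3e was at 123 CPM (8 UMIs) in Ctrl and 392 CPM (41 UMIs) in dKO, so the makeup of this small sub-cluster differed between the libraries, and its part in the Il1rl1 values was not tested.

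**Figure D3:**
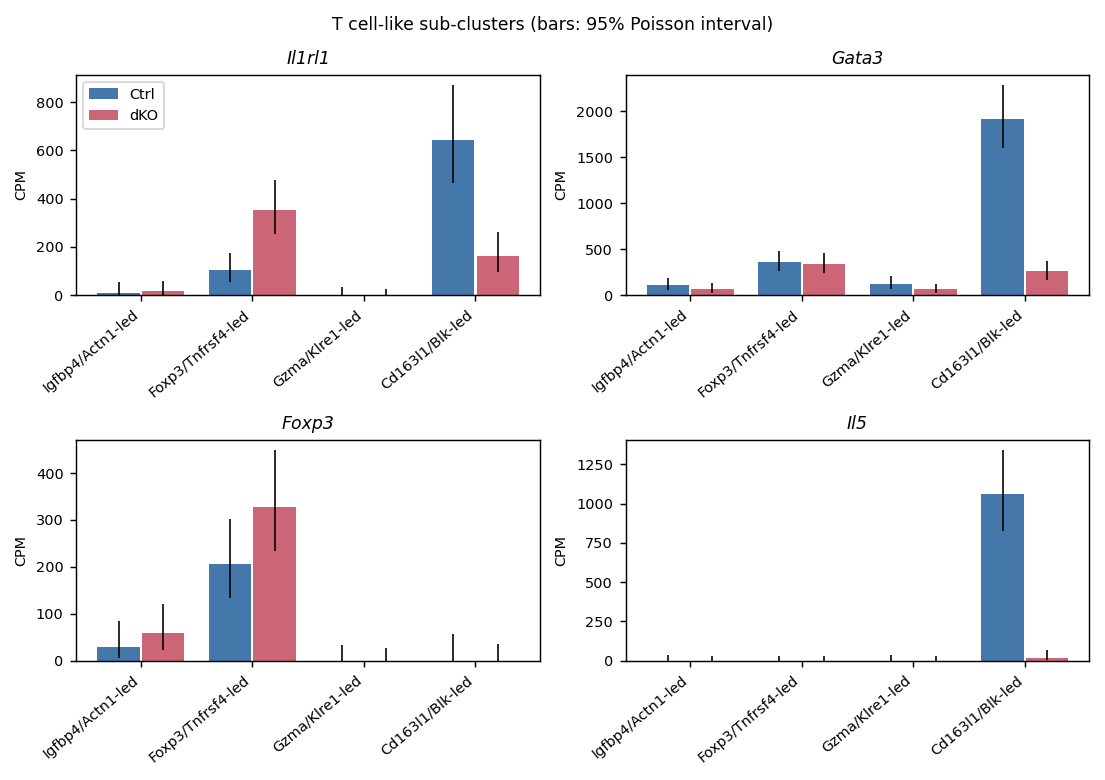
Il1rl1, Gata3, Foxp3 and Il5 in CPM (vertical axes, from 0) in 4 T cell-like sub-clusters named by their leading genes, blue bars for Ctrl and red for dKO, with 95% Poisson bars. Il1rl1 in Ctrl stood mainly in the Cd163l1/Blk-led cells together with Gata3 and Il5, at 644 CPM, and in dKO mainly in the Foxp3-led cells, at 353 CPM.

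Il1b, the gene of the IL-1β precursor, was a myeloid transcript. As a CPM level it was highest in neutrophil-like cells, followed by dendritic cell-like and MO/MP-like cells in both libraries, with each step beyond counting error. MO/MP-like cells, being many, held 68.8% of Ctrl and 72.5% of dKO Il1b UMIs. In Ctrl their level was 348 CPM (338 to 358, 4545 UMIs) and in dKO 584 CPM (568 to 600, 5035 UMIs), with a ratio of 1.68 (1.61 to 1.75). A UMI was found in 415 of 1423 cells (29.2%) and 418 of 1133 cells (36.9%), and at 2000 UMIs per cell in 20.5% and 29.0%. The thinned share in FAP-like cells, taken as the background of free RNA, was 0.489% and 0.552%.

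Neutrophil-like cells stood at 1429 CPM (1307 to 1558, 509 UMIs) in Ctrl, and dKO was at 2301 CPM (1989 to 2647, 195 UMIs), a ratio of 1.61 (1.36 to 1.90). Dendritic cell-like cells were at 1060 CPM (1107 UMIs) and 1648 CPM (1570 UMIs), a ratio of 1.55 (1.44 to 1.68). Under an alternative the log2 ratio fell from 0.69 to 0.26 in neutrophil-like and from 0.64 to 0.44 in dendritic cell-like cells. Both values were under the 1.5-fold line. The summed level of 10 neutrophil markers was 244044 CPM in the Ctrl and 152260 CPM in the dKO neutrophil-like cells. In MO/MP-like cells these markers were at 213 and 104 CPM and in dendritic cell-like cells at 164 and 307 CPM, and their part in the Il1b values was not tested. The summed level of 10 genes induced by cell handling, such as Fos, Egr1 and Hspa1a, was 7336 CPM in Ctrl MO/MP-like cells. In dKO MO/MP-like cells it was 9699 CPM, a ratio of 1.32. The dKO to Ctrl ratio of this sum was 1.14 in neutrophil-like, 0.847 in dendritic cell-like and 0.498 in cycling MO/MP-like cells. The part of these handling genes in the Il1b values was not tested. That list was added after the values were seen.

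Among 7 sub-clusters of the MO/MP-like and cycling MO/MP-like cells, Il1b was highest in the Vcan/Slpi-led cells, which carried genes of monocytes freshly arrived from blood such as Chil3 and Plac8. Their level was 1042 CPM in Ctrl and 1639 CPM in dKO, a ratio of 1.57 (1.48 to 1.68). The Arl5c/Fbxo32-led cells had a ratio of 1.89 (1.74 to 2.05), the Ctsl/Spp1-led cells 2.03 (1.74 to 2.36) and the Dcstamp/Ear2-led cells 2.13 (1.86 to 2.44). The Lyve1/Cd163-led cells, which carried genes of tissue-resident macrophages, lay the other way at 251 and 194 CPM, a ratio of 0.776 (0.653 to 0.921). The interferon-response cells led by Calhm6 and Ifit3 were at 249 and 264 CPM, with an interval of the ratio (0.943 to 1.19) that held 1. Cycling MO/MP-like cells were at 192 and 133 CPM, a ratio of 0.693 (0.535 to 0.887), but 104 of 361 Ctrl and 46 of 78 dKO UMIs came from 1 cell each, and the direction turned with the mean over the CPM of single cells (log2 ratio 0.14). Over MO/MP-like cells without the cycling class, the ratio was 1.57 with sub-cluster makeup held equal.

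Outside the myeloid classes Il1b was rare. MuSC-like cells had 5 UMIs in Ctrl and 28 in dKO, of which 26 came from 1 cell, and the neutrophil markers there were at 37.2 and 103 CPM. EC-like cells had 33 UMIs in Ctrl, of which 20 came from 1 cell, and 1 UMI in dKO. Cells removed as doublets held 10.8% of all Ctrl and 17.2% of all dKO Il1b UMIs, the largest such share of the 7 genes in dKO.

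Il1rn, which encodes the IL-1 receptor antagonist, followed the same cells as its opponent except for dendritic cell-like cells. Neutrophil-like cells stood at 494 CPM (424 to 573) in Ctrl against 732 CPM (561 to 938) in dKO, with a ratio of 1.48 (1.09 to 1.99). MO/MP-like cells were at 174 CPM (167 to 181, 2277 UMIs) and 262 CPM (251 to 273, 2259 UMIs), a ratio of 1.503 (1.42 to 1.59) that stood on the 1.5-fold line. They held 85.99% and 91.6% of all Il1rn UMIs. Dendritic cell-like cells were at 21.1 and 32.5 CPM, from 22 and 31 UMIs, although their Il1b level was above 1000 CPM.

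In 6 of 7 MO/MP-like sub-clusters the Il1rn value was higher in dKO. The largest ratio, 2.42 (2.11 to 2.80), was in the Vcan/Slpi-led cells, at 179 and 434 CPM, the same cells in which Il1b was highest. In the Lyve1/Cd163-led cells, where Il1b was lower in dKO, Il1rn was at 98.9 and 183 CPM, a ratio of 1.85 (1.49 to 2.32). The Ctsl/Spp1-led cells had the highest Ctrl level, 282 CPM, and a ratio of 1.18 (1.04 to 1.33). The Dcstamp/Ear2-led cells were at 219 and 208 CPM, a ratio of 0.951 (0.809 to 1.12). Cycling MO/MP-like cells were at 70.6 and 141 CPM, a ratio of 2.001 (1.503 to 2.65), with 33 of the 83 dKO UMIs in 1 cell. The 10 neutrophil markers summed to 25166 CPM in the Ctrl and 402 CPM in the dKO cells of this cycling class, and their part in its Il1b and Il1rn values was not tested.

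The number of antagonist transcripts per ligand transcript differed between cell groups. MO/MP-like cells had 0.501 Il1rn UMIs per Il1b UMI in Ctrl and 0.449 in dKO. Neutrophil-like cells had 0.346 and 0.318, and dendritic cell-like cells 0.0199 and 0.0197, while cycling MO/MP-like cells had 0.368 and 1.06. Within MO/MP-like sub-clusters the values moved both ways, from 0.395 to 0.942 in the Lyve1/Cd163-led cells and from 2.11 to 1.22 in the Ctsl/Spp1-led cells. Both genes were often found in the same MO/MP-like cell. Among cells with an Il1b UMI, 40.5% in Ctrl and 56.5% in dKO had Il1rn, against 35.2% and 34.8% of cells without Il1b. The cells with Il1b were somewhat deeper, with medians of 8285 and 7502 UMIs against 7488 and 6272 UMIs.

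**Figure D4:**
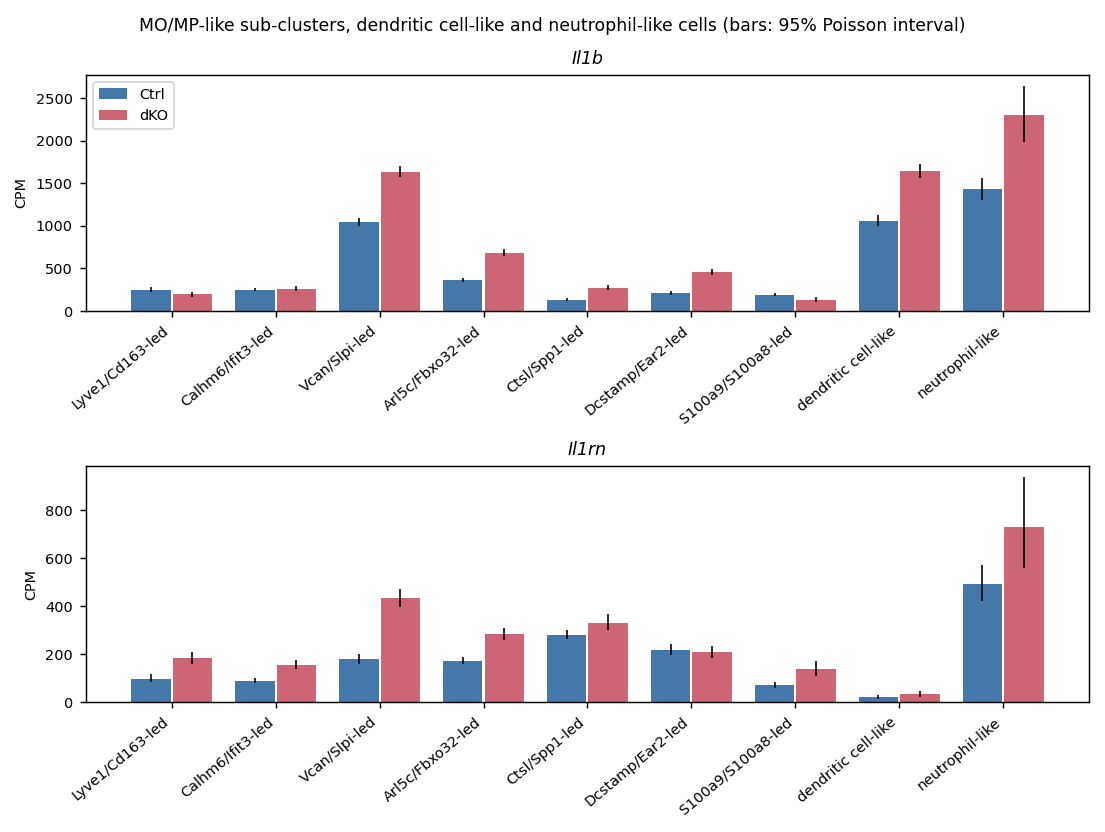
Il1b (top) and Il1rn (bottom) in CPM (vertical axes, from 0) in 7 MO/MP-like sub-clusters named by their leading genes, dendritic cell-like cells and neutrophil-like cells, blue bars for Ctrl and red for dKO, with 95% Poisson bars. Dendritic cell-like cells stood at 1060 and 1648 CPM for Il1b and at 21.1 and 32.5 CPM for Il1rn, while neutrophil-like and Vcan/Slpi-led cells were high in both genes.

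Il1r1, the signalling receptor for IL-1, was a stromal and vascular transcript. FAP-like cells held 70.5% of Ctrl and 85.6% of dKO Il1r1 UMIs, at 129 CPM (123 to 135, 1893 UMIs) and 197 CPM (190 to 204, 2997 UMIs). The ratio was 1.53 (1.44 to 1.62), just past the 1.5-fold line, and 1.42 with the sub-cluster makeup held equal. It was found in 57.3% and 66.3% of FAP-like cells, and at 2000 UMIs per cell in 21.3% and 27.3%. The FAP-like sub-clusters lay between 89.7 and 173 CPM in Ctrl and between 97.6 and 326 CPM in dKO. The ratios were 1.88 (1.61 to 2.21) in the Clu/Comp-led, 1.68 (1.41 to 2.01) in the Dmkn/Car8-led and 1.25 (1.13 to 1.37) in the Cxcl5/Inhba-led cells.

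Cycling FAP-like cells were at 179 and 182 CPM of Il1r1, a ratio of 1.02 (0.848 to 1.22). EC-like cells were at 117 CPM (311 UMIs) and 111 CPM (97 UMIs) when pooled, but their clusters differed. The Selp/Sele-led cluster was at 313 CPM (252 UMIs) in Ctrl, above both FAP-like classes, and at 222 CPM (76 UMIs) in dKO, with a ratio of 0.710 (0.542 to 0.921), and the Gpihbp1/Timp4-led cluster was at 31.1 and 51.0 CPM, a ratio of 1.64 (0.896 to 2.87). The level was 98.6 and 90.7 CPM in smooth muscle cell/pericyte-like cells. In Ctrl, FAP-like and pooled EC-like cells could not be placed in order beyond counting error (1.10-fold, 0.975 to 1.24), nor EC-like and smooth muscle cell/pericyte-like cells (1.19-fold, 0.929 to 1.54). In dKO both FAP-like classes stood above pooled EC-like cells, the nearer of them 1.64-fold (1.29 to 2.09). MuSC-like cells were at 26.8 CPM (62 UMIs) in Ctrl and 45.2 CPM (28 UMIs) in dKO, a ratio of 1.69 (1.04 to 2.67) from 30 dKO cells. T cell-like cells had 1 UMI in Ctrl and 17 in dKO, a ratio of 14.1 with an interval from 2.22 to 591, and 14 of the 17 were in the Cd163l1/Blk-led cells. MO/MP-like cells were near 0 for the receptor, at 4.44 and 5.68 CPM.

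Il1r2, the decoy receptor gene, was highest in neutrophil-like cells, where it was found in 85 of 98 Ctrl and 30 of 35 dKO cells. Ctrl stood at 1229 CPM (1117 to 1350, 438 UMIs) and dKO at 1723 CPM (1455 to 2026, 146 UMIs), a ratio of 1.40 (1.15 to 1.69). Dendritic cell-like cells followed at 126 and 113 CPM, a ratio of 0.897 (0.689 to 1.17). FAP-like cells were at 19.7 CPM (290 UMIs) and 25.2 CPM (384 UMIs), a ratio of 1.28 (1.09 to 1.49). Neutrophil-like cells held 43.1% of the Il1r2 UMIs of Ctrl and 18.1% of those of dKO, while FAP-like cells held 28.5% and 47.6%, so the class with most decoy transcripts was not the same in both libraries.

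Within FAP-like cells the decoy had its own place. The Dmkn/Car8-led cells, which had Dpp4 among their leading genes, were at 109 CPM (143 UMIs) in Ctrl and 77.6 CPM (135 UMIs) in dKO, a ratio of 0.712 (0.558 to 0.907). The other 5 sub-clusters lay between 9.37 and 14.2 CPM in Ctrl and between 16.5 and 31.6 CPM in dKO. In the C1qtnf3/Mest-led cells the ratio was 1.80 (1.26 to 2.59). Il1r2 was more frequent in FAP-like cells with Il1r1 than in those without, in 18.6% against 6.26% in Ctrl and 24.6% against 6.25% in dKO, and cells with Il1r1 were also deeper, with medians of 14913 and 13287 against 8305 and 8210 UMIs. MO/MP-like cells were at 8.49 CPM (111 UMIs) and 14.95 CPM (129 UMIs), a ratio of 1.76 (1.36 to 2.29), led by the Vcan/Slpi-led cells at 26.5 and 43.7 CPM.

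Il1rap, the co-receptor gene needed by both receptors, was low and broad. Neutrophil-like cells were at 121 CPM (43 UMIs) in Ctrl and 106 CPM (9 UMIs) in dKO, 8.65-fold (5.06 to 15.2) and 10.5-fold (4.02 to 26.1) above the class next in order. Below it, no class in either library could be told from its neighbour in the order beyond counting error. FAP-like cells were at 9.53 CPM (140 UMIs) and 9.06 CPM (138 UMIs), a ratio of 0.951 (0.746 to 1.21), so while Il1rl1 and Il1r1 were higher in dKO FAP-like cells the co-receptor differed by less than counting error. In the Cxcl5/Inhba-led cells it was found in 7 of 80 Ctrl and 17 of 124 dKO cells with Il1rl1, 8.75% and 13.7%, and in 14.4% and 13.1% of those without. MO/MP-like cells were at 6.196 and 8.46 CPM, a ratio of 1.37 (0.982 to 1.90).

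**Figure D5:**
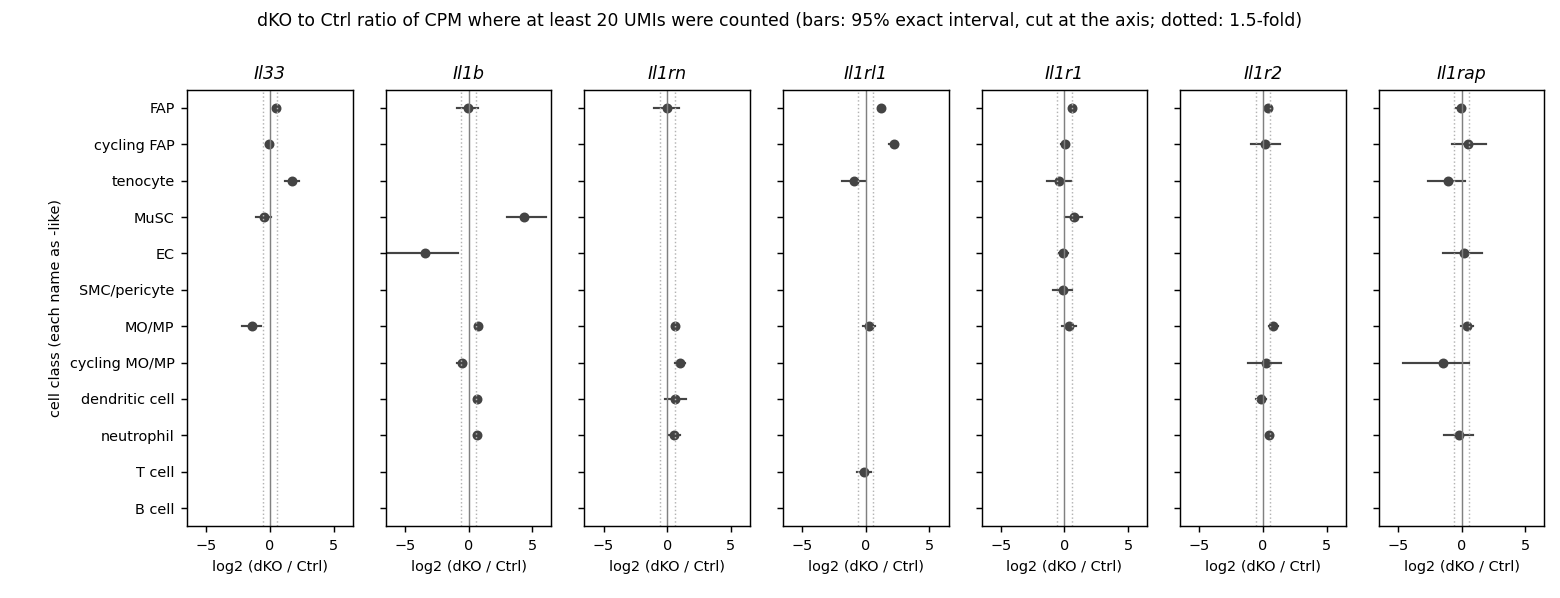
dKO to Ctrl ratios of CPM on a log2 axis for the 7 genes (columns) in each class (rows) that held at least 20 UMIs over both libraries, as points with 95% exact intervals, and dotted lines at 1.5-fold. In FAP-like cells Il1rl1 (2.23-fold) and Il1r1 (1.53-fold) lay past the upper line, and in MO/MP-like cells Il1b (1.68-fold), Il1rn (1.503-fold) and Il1r2 (1.76-fold). In MO/MP-like cells Il33 (0.374-fold) lay past the lower line.

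Counted over the 7 genes, 2 were at least 1.5-fold higher and 0 lower in dKO FAP-like cells, where 4.47% of all 12561 genes counted were higher and 6.32% lower. These were Il1rl1 and Il1r1. At cluster resolution 0.4 the count was also 2, but Il33 was above the line (log2 ratio 0.70) and Il1rl1 under it (0.55), and with sub-cluster makeup held equal Il1r1 was under it (1.42-fold). In MO/MP-like cells 3 were higher and 1 lower, against 6.36% and 6.80% of 11224 genes. The 3 became 1 with no doublets removed and 2 with no integration or as the mean of single cells. The smaller classes are given with their share of all genes higher and lower in brackets. Of the members with enough UMIs, 2 of 3 were higher in dendritic cell-like cells (11.6% and 10.2%), 1 of 4 in neutrophil-like cells (22.8% and 19.5%), 1 of 5 in cycling FAP-like cells (11.7% and 9.80%) and 2 of 3 in MuSC-like cells (14.2% and 19.4%), and none of these was lower. Tenocyte-like cells had 1 of 4 higher and 2 lower (8.36% and 10.8%), and both of the lower genes turned direction under an alternative, Il1rl1 with all variable genes (log2 ratio 0.019) and Il1rap as the mean of single cells (0.77). The 2 in dendritic cell-like cells included Il1rn, which turned to -0.12 as the mean of single cells. The other was Il1b, which fell to 0.44 under an alternative, below the 1.5-fold line. The 1 in neutrophil-like cells, also Il1b, fell to 0.26. The 2 in MuSC-like cells were Il1b and Il1r1. Their log2 ratios fell from 4.39 to 0.91 and from 0.75 to 0.074 under an alternative, the latter below the line. In cycling MO/MP-like cells there were 1 of 4 higher and 1 lower (14.9% and 14.7%). These were Il1rn and Il1rap, and both came inside the 1.5-fold lines under an alternative. Their log2 ratios went from 1.00 to 0.54 and from -1.49 to -0.576. EC-like cells had 1 of 3 lower (7.85% and 16.0%), namely Il1b, whose log2 ratio turned from -3.44 to 1.97 with no doublets removed, and smooth muscle cell/pericyte-like cells 0 of 1 past the fold (11.7% and 21.8%). The median log2 ratio of the 7 genes was 0.35 in FAP-like and 0.45 in MO/MP-like cells, against -0.06 and -0.01 over all genes. Over all cells of a library, where class shares enter, the ratios were 1.81 for Il33, 2.97 for Il1rl1, 1.75 for Il1r1, 1.41 for Il1b, 1.25 for Il1rn, 1.07 for Il1r2 and 0.965 for Il1rap.

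Other genes of the pathway were read from lists of family members, signalling, processing and response genes. For comparison, 4.47% of all genes counted were at least 1.5-fold higher and 6.32% lower in dKO FAP-like cells, and 6.36% and 6.80% in MO/MP-like cells. None of the 9 signalling genes from Myd88 to Tab2 was past 1.5-fold in either class. The nearest was Irak3, an inhibitor of the pathway, at 47.2 and 67.7 CPM in FAP-like cells, a ratio of 1.43 (1.30 to 1.58), and Irak2 in MO/MP-like cells with 1.43 (1.29 to 1.58). Of 7 genes that process or release IL-1β, 2 were higher in dKO MO/MP-like cells. These were Casp4, a caspase of the non-canonical inflammasome, with a ratio of 2.07 (1.74 to 2.48) and the inflammasome sensor Nlrp3 with 1.62 (1.49 to 1.77), while Casp1 was at 1.09 (0.962 to 1.24). In FAP-like cells 0 of 4 such genes were past the fold. Of the other ligands, Il18 in MO/MP-like cells was at 30.1 and 44.4 CPM, a ratio of 1.48 (1.28 to 1.70), and Il1a at 11.9 and 12.9 CPM. Il18bp, which encodes a trap for interleukin-18, was the 1 gene past the fold of 3 receptor family genes counted in FAP-like cells (1.51, 1.09 to 2.08) and of 4 in MO/MP-like cells (1.80, 1.57 to 2.07).

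Of 11 genes known to be induced by IL-1 in stromal cells, 3 were higher and 1 lower in dKO FAP-like cells, where 4.47% of all genes were higher and 6.32% lower. Lif had a ratio of 1.71 (1.48 to 1.97), the neutrophil chemokine gene Cxcl2 1.67 (1.62 to 1.73) and the prostaglandin synthase gene Ptgs2 1.56 (1.51 to 1.62), while Csf3 had 65 UMIs in Ctrl and 4 in dKO. These ratios mix sub-clusters whose shares differed between the libraries. In the Cxcl5/Inhba-led cells none of the 3 was past the fold. Lif was at 1.41 (1.201 to 1.66), Cxcl2 at 1.15 (1.10 to 1.21) and Ptgs2 at 1.34 (1.27 to 1.41). Cxcl2 was past it in the C1qtnf3/Mest-led (1.94), G0s2-led (2.44) and Dmkn/Car8-led cells (3.86). Ptgs2 was past it in the C1qtnf3/Mest-led (1.63) and Dmkn/Car8-led cells (1.65). Lif was past it in the Clu/Comp-led (1.67, 0.919 to 3.18) and Fmo2/Gdf10-led cells (6.43, from 3 Ctrl UMIs). The other sub-cluster values counted for these genes lay under the fold. The median log2 ratio of the list over FAP-like cells was 0.36. In MO/MP-like cells, with 6.36% of all genes higher, 4 of the 11 were higher, namely Csf3 (2.06), Ccl7 (1.90), Nfkbiz (1.66) and Nfkbia (1.52), with a median of 0.42. In T cell-like cells, with 9.41% of all genes lower and 13.3% higher, 3 of 4 counted were lower, with Cxcl2 at 0.312, Nfkbiz at 0.569 and Nfkbia at 0.654. Of 10 counted genes of ST2-bearing lymphocytes, Il13 was higher in dKO T cell-like cells, with 3 and 19 UMIs of which 14 came from 1 cell, and Il5 (0.0241), Gata3 (0.358) and Areg (0.398) were lower. Of the same list, 0 of 5 counted in FAP-like cells were past the fold, and in MO/MP-like cells 2 of 6 were higher and 1 lower. In T cell-like cells Foxp3 was at 71.9 and 94.9 CPM, a ratio of 1.32 (0.811 to 2.18).

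Across the 24 profiles of 12 classes in 2 libraries, the genes most like each member were named by Pearson's r of log2(CPM + 1), as a description. The profiles share libraries, and mostly separate cell types. For Il33 these were Has2 (r = 0.92), the hyaluronan synthase gene, then Srpx2, Kif21a, Bcat1 and Epb41l3. For Il1rl1 they were Tnfsf11 (0.83), which encodes the osteoclast factor RANKL, 1700019D03Rik, Lif, Penk and Rpl39l. Il1b was most like Mefv (0.93), Nfam1, Sirpb1c, Alox5ap and Pirb, and Il1rn most like Cd300ld (0.98), Ptafr, Clec4e, Ccl6 and Ccr1. Il1r1 was most like Prss23 (0.91), Cxcl12, Tcf7l1, Adamts1 and Nlgn2, Il1r2 most like Apobr (0.89), Pilrb2, Pygl, Cd80 and Riok3, and Il1rap most like Dhrs7 (0.90), Pdcd6, Adpgk, Ell and Gsr.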

How the data were processed

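Droplet single-cell RNA-seq (10x) was made from 2 libraries, each of pooled cells of 3 mice, labelled Ctrl and dKO. The values used were the counts that the authors deposited, whole-number UMI counts per gene symbol and barcode. The processing notes name Cell Ranger 7.0.0, Seurat 4.3.0 and mm10, while the matrix header names Cell Ranger 3.0.2, and which of the versions made the counts is not given in the sources used here. No mitochondrial symbols were among the rows.

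From these counts, cells with at least 500 genes were kept, and the top 7.5% of Scrublet scores (scanpy 1.11.5) were removed per library, since Scrublet's own threshold marked 8 and 21 cells. Clustering used Seurat 5.3.0 with 1971 variable genes, from which the 7 members and the family lists had been removed, 40 dimensions and resolution 0.8, giving 24 clusters. FAP-like cells, and MO/MP-like with cycling MO/MP-like cells, were split with 30 dimensions at resolution 0.4, T cell-like cells with 15 dimensions at 0.8. UMIs were summed per class and library. Intervals (95%) came from scipy 1.17.1. No test was possible with 1 library per group. The fold code was tested on simulated counts.

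The members and lists were chosen with earlier results of these data known. Genes named beside the members were the listed genes past 1.5-fold or nearest to it, with at least 20 UMIs, and the 5 genes of highest Pearson's r among those with at least 200 UMIs. Genes such as Casp1, Il18, Il1a and Foxp3 and the genes of the Cd163l1/Blk-led cells were added after their values were seen. Alternatives tried were other cluster resolutions, variable genes, cell filters, doublet removal and thinning, and the mean of the CPM of single cells. A few results that need withheld gene names are not reported here.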

Additional observations from a re-analysis of the deposited data

Results flagged for a closer look

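The genes below are those that were at least 1.5-fold higher in dKO in 1 class or sub-cluster and at least 1.5-fold lower in another, with the log2 intervals of both clear of 0, so that a value over all cells would mix them. Each class is 1 library against 1 library, and the difference between the classes was not tested. Intervals of this kind cover counting error only.

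Il33 had a log2 ratio of 1.75 in tenocyte-like cells. In MO/MP-like cells it was -1.42. In both classes 1 cell held much of the signal, 39 of 83 dKO UMIs in the former and 33 of 77 Ctrl UMIs in the latter. Il1rl1 had log2 ratios of 1.16 in FAP-like cells, 2.18 in cycling FAP-like cells and -0.91 in tenocyte-like cells, where 24 of 50 Ctrl UMIs came from 1 cell. Il1b had log2 ratios of 0.75 in MO/MP-like, 0.64 in dendritic cell-like and 0.69 in neutrophil-like cells. It had 4.39 in MuSC-like cells, from 28 dKO UMIs of which 26 came from 1 cell, and -3.44 in EC-like cells, from 33 Ctrl UMIs of which 20 came from 1 cell.

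Within FAP-like cells the log2 ratio of Il1rl1 was 1.03 in the Cxcl5/Inhba-led and 1.77 in the Dmkn/Car8-led sub-cluster, and -0.64 in the Clu/Comp-led sub-cluster. In the last of these 64 of 106 Ctrl UMIs came from 1 cell, and without the richest cell of each library its log2 ratio was 0.014. In the Dmkn/Car8-led cells 37 of 59 dKO UMIs came from 1 cell, and the value without the richest cells was 1.23. Within T cell-like cells it was 1.78 in the Foxp3-led and -1.99 in the Cd163l1/Blk-led sub-cluster, and 2.85 and -2.61 without the richest cells. The T cell-like values rest on 15 positive cells in all for the former and 11 for the latter.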

How the results depend on the processing

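No paired analysis was possible because each group had 1 library. Of 392 recomputed ratios of 47 results, 358 stayed inside the counting interval of the reported ratio and 34 did not. The sign was opposite in 22, of which 5 belonged to results whose counting interval lay clear of 0. Il33 in FAP-like cells (log2 ratio 0.48) became 0.70 at cluster resolution 0.4, 0.58 as the mean of single cells and 0.33 with sub-cluster makeup held equal. Il1rl1 in FAP-like cells (1.16) ranged from 0.55, at resolution 0.4 and under the 1.5-fold line, to 1.23. Il1r1 in FAP-like cells (0.61) became 0.74 at resolution 0.4 and 0.51 with makeup held equal. Il1b in MO/MP-like cells (0.75) became 0.84 with no doublets removed, 0.57 as the mean of single cells and 0.65 with makeup held equal, and Il1rn (0.59) became 0.74 as the mean of single cells. The 5 sign changes of ratios clear of 0 were Il1rl1 in tenocyte-like cells with all variable genes (0.019), Il1b in EC-like cells with no doublets removed (1.97), Il1b in cycling MO/MP-like cells with all variable genes (0.22) and as the mean of single cells (0.14), and Il1rl1 in the Clu/Comp-led cells without the richest cells (0.014). Of the other sign changes, Il1rap in tenocyte-like cells went from -1.04 to 0.77, Il1rn in dendritic cell-like cells from 0.63 to -0.12 and Il1rl1 in T cell-like cells from -0.14 to 0.20 as the mean of single cells, and Il1b in FAP-like cells from -0.05 to 2.80 with no doublets removed. Apart from the change of class at resolution 0.4, the cause was not tested. The equal-makeup and sub-cluster alternatives were chosen after seeing the data. In FAP-like cells 2 of the 7 genes were higher past 1.5-fold, 3 with no doublets removed and 4 as the mean of single cells. In MO/MP-like cells 3 were higher, 1 with no doublets removed and 2 with no integration. Classes under 50 cells and values under 20 UMIs limit the depth, and 1 cell can set them.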
